A study of Mus musculus with 13 samples.

Results

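The axon guidance ligands and receptors described here are the semaphorins, plexins, neuropilins, netrins, netrin-G proteins, Dcc and Unc5 receptors, Slits, Robos, ephrins and Eph receptors of the mouse. They were chosen by name among the 21834 protein-coding genes of the authors' deposited comparison table, which lists 35734 genes. Of 71 matching names, 68 had at least 80 estimated read pairs summed over the 8 RNA libraries, and all 68 passed the filter on low counts and were tested. The 3 left out were Ntn5, Plxnb3 and Robo4, with 2.6, 16.9 and 37.7 normalised counts in total in the authors' deposited table. The member nearest the limit from above was Epha1, with 87 read pairs.

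The libraries came from retinas of CD1 mice of postnatal day 0. The cells were dissociated, transfected, plated for 9 h and sorted for GFP, a fluorescent protein. Control cells carried GFP alone and the others carried Ikzf1-IRES-GFP, a construct in which an internal ribosome entry site lets 1 transcript give both Ikzf1 and GFP. Each group had 4 libraries, from 400000 sorted cells per control replicate and 300000 per Ikzf1 replicate, and the labels call the cells retinal progenitor cells. Ikaros, the product of Ikzf1, is a DNA-binding protein with zinc fingers. The comparison asks how RNA levels differ when Ikzf1 is added for these 9 h. The plasmid was given transiently, the promoter that drove it in this arm is not given in the sources used here, and cells were taken out of their place in the retina. The replicates are labelled as biological, without saying from which animals, so p-values measure the spread between these libraries. A lower value in such bulk samples cannot be told apart as fewer cells of a type or less RNA per cell.

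Guidance cues steer growing axons by attraction or repulsion. Semaphorins act through plexins, with neuropilins as partners for most secreted members, netrins through Dcc and Unc5 receptors, and Slits through Robo receptors. Ephrins are membrane-bound and act on Eph receptor kinases of neighbouring cells. In the retina these systems direct ganglion cell axons to the optic disc and across the chiasm, map them onto their targets and shape the layers of the inner retina.

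Totals ran from 21405714 to 30510321 estimated read pairs per library. Ikzf1 itself stood at 74.5 ± 7.69 CPM (SD, n = 4) in the controls and at 181427 ± 7299 CPM (SD, n = 4) in the Ikzf1 libraries, where it took 15.9 to 17.2% of all read pairs. CPM here are counts scaled to a common library size with TMM factors. Changes are log2 fold changes, Ikzf1 over control, with their standard error (SE) and a Benjamini-Hochberg adjusted p from edgeR's quasi-likelihood test over all 15634 genes tested. A gene is called when the adjusted p is under 0.05. The median change over all genes in the test was 0.00. Summed CPM of the marker lists was 1568 to 1731 in the controls and 1300 to 1339 with Ikzf1 for the 11 retinal progenitor markers, with 1 higher and 7 lower. For the 7 photoreceptor precursor markers the sum was 1071 to 1247 and 713 to 823, with none higher and 6 lower. For the 13 retinal ganglion cell markers, 11 of them tested, it was 526 to 561 and 360 to 393, with 6 higher and 5 lower, and Pou4f2 and Slc17a6 of that list were under 1 CPM in both groups. In the controls that sum was mostly the neurofilament genes Nefm and Nefl, at 226 and 117 CPM on average. These fell by 1.26 and 2.64 on the log2 scale, to 94.2 and 18.8 CPM. With Ikzf1 the largest single gene of the list was Elavl3, which rose by 0.51, from 106 to 150 CPM. Pou4f1, Sncg and Rbpms rose by 2.04, 3.01 and 1.33 from under 10 CPM. The amacrine and horizontal markers summed to 353 to 413 CPM and 333 to 362 CPM, with none higher and 4 of 8 tested lower. Muller glia markers summed to 542 to 602 and 513 to 550 CPM, with 1 higher and 2 lower of 5 tested. Astrocyte markers summed to 5.06 to 6.1 and 3.85 to 4.7 CPM, with none higher and 1 of 3 tested lower. The controls therefore held RNA of genes used as markers of other retinal cell types. Whether such cells were present was not tested. Beside the list counts, 59.1% of all tested genes were called, 29.3% higher and 29.8% lower. The part of these marker lists in the results below was not tested.

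Of the 68 members, 53 were called, which is 77.9% of them, against 59.1% of all tested genes. Among them 19 rose and 34 fell, where 29.3% of all tested genes were called higher and 29.8% lower. On the log2 scale, 7 members rose and 13 fell by 1 or more, against 4.94% and 6.39% of all tested genes. The 4 Ikzf1 libraries did not overlap the 4 controls for 48 members, or 70.6%, against 53.1% of all tested genes. The members' median log2 fold change was -0.18 and their median absolute change 0.51, against 0.00 and 0.29 over all tested genes.

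Of the 36 ligands, counting the netrin-G proteins among them, 14 rose and 15 fell, and their median log2 fold change was 0.01. Of the 32 receptors, counting the neuropilins, 5 rose and 19 fell, with a median of -0.22. No receptor rose by 1 or more on the log2 scale and 6 fell by that much, while 7 ligands rose and 7 fell by that much. Of all tested genes, 29.3% were called higher and 29.8% lower, and 4.94% and 6.39% by 1 or more. The difference between ligands and receptors was not tested.

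**Figure D1:**
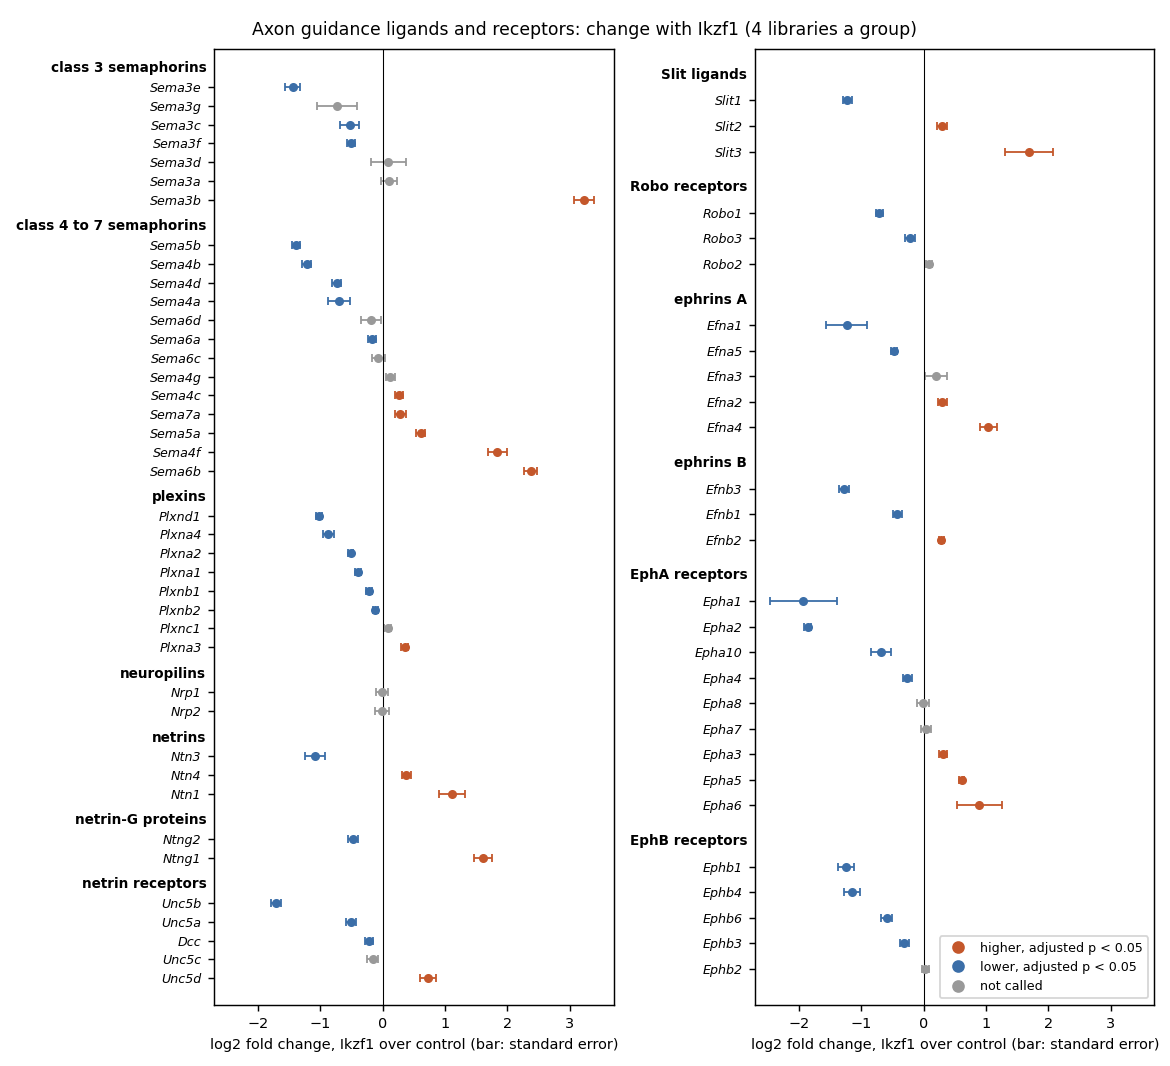
Log2 fold change of each of the 68 members, Ikzf1 over control, by family, with bars for the standard error and 4 libraries in each group. The members run from -1.93 (Epha1) to 3.22 (Sema3b), and most families hold both rises and falls; the neuropilins sit at -0.01.

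**Figure D2:**
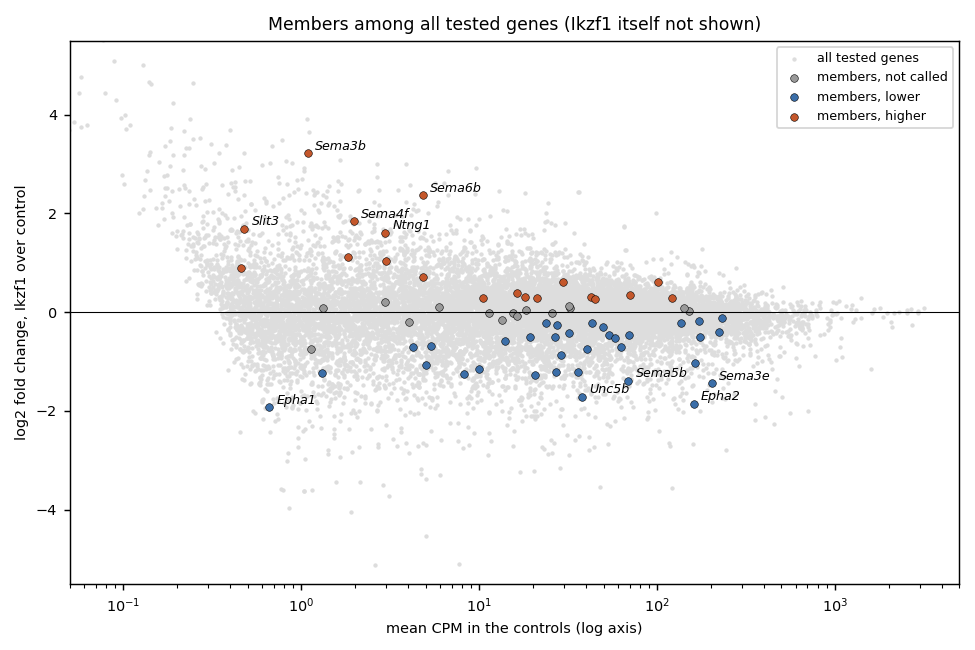
Mean CPM in the controls (log axis) against log2 fold change for all tested genes (pale grey) and for the members (outlined points); Ikzf1 and genes with a control mean under 0.05 CPM are not drawn. The 3 members with the largest log2 rises, Sema3b, Sema6b and Sema4f, had control means of 1.09, 4.84 and 1.98 CPM, while the falls of Epha2, Sema3e and Plxnd1 began from 161, 203 and 163 CPM.

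Levels between genes are compared in TPM, which are scaled by transcript length. In the controls 34 members had a mean of at least 10 TPM, 27 lay between 1 and 10 and 7 were under 1. The 6 highest means were those of Ntng2, Plxnb2, Epha2, Sema6a, Plxnd1 and Robo2. Ntng2, a membrane-anchored netrin relative, had 91.5 ± 8.54 TPM (SD, n = 4), Plxnb2, a receptor for class 4 semaphorins, 88.5 ± 3.92 TPM, and Epha2, an Eph receptor, 87.1 ± 2.06 TPM. The libraries of these 3 overlapped one another. Ntng2's level rests on short transcript models, with a mean effective length of 1115 bases over 11 transcripts. Sema6a, a transmembrane semaphorin, followed with 74.8 ± 6.21 TPM, Plxnd1, the receptor of Sema3e, with 70.8 ± 3.05 TPM and Robo2, a Slit receptor, with 63.8 ± 2.45 TPM. Sema6a overlapped both of its followers, and Plxnd1 and Robo2 did not overlap. Slit3, at 0.18 ± 0.122 TPM, had the lowest mean of all members.

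The promoters of members at both ends of the range are shown because Ikaros proteins bind a core of GGGAA, which lets a reader see where those letters stand. Each run below is the 250 bases before the annotated gene start, 5′ to 3′ on the gene's strand, from RefSeq on build GRCm38.p6. Capitals mark GGGAA or its reverse complement TTCCC. Sema6b and Sema4f are the 2 largest rises with a RefSeq window, and Epha2 and Unc5b the 2 largest falls at 1 CPM or more.
Sema6b (chr17:56140344-56140593, minus strand): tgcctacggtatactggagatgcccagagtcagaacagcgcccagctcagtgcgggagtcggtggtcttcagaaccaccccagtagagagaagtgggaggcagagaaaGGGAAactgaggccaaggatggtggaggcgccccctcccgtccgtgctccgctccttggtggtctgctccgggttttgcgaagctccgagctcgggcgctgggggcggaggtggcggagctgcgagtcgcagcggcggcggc
Sema4f (chr6:82939770-82940019, minus strand): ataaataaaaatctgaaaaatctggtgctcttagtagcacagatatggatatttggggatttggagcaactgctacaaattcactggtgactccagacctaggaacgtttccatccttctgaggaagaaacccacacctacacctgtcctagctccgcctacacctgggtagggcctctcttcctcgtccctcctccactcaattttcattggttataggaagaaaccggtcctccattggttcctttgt
Epha2 (chr4:141300971-141301220, plus strand): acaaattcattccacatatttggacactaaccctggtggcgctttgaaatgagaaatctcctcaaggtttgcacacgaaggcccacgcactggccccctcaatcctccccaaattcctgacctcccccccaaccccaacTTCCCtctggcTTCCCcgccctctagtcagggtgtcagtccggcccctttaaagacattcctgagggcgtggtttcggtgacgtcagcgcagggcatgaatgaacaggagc
Unc5b (chr10:60831582-60831831, minus strand): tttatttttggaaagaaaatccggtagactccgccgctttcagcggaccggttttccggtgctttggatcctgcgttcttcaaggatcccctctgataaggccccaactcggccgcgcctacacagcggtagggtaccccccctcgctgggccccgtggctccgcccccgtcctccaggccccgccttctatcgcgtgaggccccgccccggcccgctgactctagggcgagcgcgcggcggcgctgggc

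Sema6b holds the letters 1 time in this stretch, Epha2 2 times, and Sema4f and Unc5b hold none. RefSeq has a second Sema6b window, at chr17:56133853-56134102, whose 250 bases before the start hold 0 matches. RefSeq windows of 300 bases, 250 before to 50 after the start, were matched by symbol for 58 of the 68 members, 74 windows in all. Dcc, Efnb3, Ntn1, Plxna1, Plxna4, Sema3b, Sema3f, Sema6a, Slit1 and Unc5d were not matched. GGGAA on either strand stood in 60.8% of the members' windows and in 62.7% of all 32851 windows. By call, the share was 55.6% of 18 windows for members that rose, 60% of 35 for those that fell and 66.7% of 21 for those not called. The median GC content was 64.3% in the members' windows and 52.7% in all windows. A match says only that the letters are there. The members' genes also spanned more of the genome than most, with a median of 63.7 kb against 22.6 kb for all tested genes. The median span was 107 kb for members that rose, 43.3 kb for those that fell and 154 kb for those not called.

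Among the secreted class 3 semaphorins, 1 of 7 rose, 3 fell and 3 were not called. Beside this and the family counts that follow, 59.1% of all tested genes were called, 29.3% higher and 29.8% lower. Sema3b, a repellent (chromosome 9, 107597674 to 107609229, minus strand, build GRCm38), was measured at 0.871, 1, 1.31 and 1.18 CPM in the controls and 8.81, 11.9, 10.5 and 9.95 CPM with Ikzf1, each list in the order of replicates 1 to 4, as in all that follow. Every Ikzf1 library was above every control (log2 fold change 3.22, SE 0.16, adjusted p 3.90e-16). This was the largest log2 rise of any member, from a level close to 1 CPM. The reads of Sema3b were also assigned to other transcripts: ENSMUST00000102529.9 held 2.83% ± 5.66 (SD, n = 4) of the gene's TPM in the controls and 53% ± 9.27 (SD, n = 4) with Ikzf1. With an offset for average transcript length the log2 fold change was 2.95 (adjusted p 1.14e-04), and the authors' deposited table gives 1.86.

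Sema3e fell from the highest level of the class. This ligand, which binds Plxnd1 without a neuropilin, was measured at 195, 206, 192 and 217 CPM in the controls and 87.8, 64, 83.1 and 63.2 CPM with Ikzf1. All 4 Ikzf1 libraries were below the controls, replicates 2 and 4 lowest (log2 fold change -1.44, SE 0.12, adjusted p 3.68e-05). Sema3c and Sema3f, both secreted ligands that use neuropilins, also fell, by 0.53 and 0.51 on the log2 scale (adjusted p 0.0175 and 3.73e-07). Sema3f lies 72.3 kb from Sema3b on chromosome 9, so neighbours here moved in opposite directions. Sema3a, the classic collapsing factor that acts through Nrp1, had a log2 fold change of 0.10 and Sema3d one of 0.09 (adjusted p 0.521 and 0.799). Sema3g, at about 1 CPM or less, had -0.74 (adjusted p 0.0517). Sema3g passed the threshold without control replicate 2, control replicate 3 or Ikzf1 replicate 1 (adjusted p 0.0453, 0.0358 and 0.0322), and with protein-coding genes only (adjusted p 0.0449).

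The membrane-bound semaphorins of classes 4 to 7 moved both ways, with 5 of 13 higher, 5 lower and 3 not called. Sema6b, a transmembrane ligand of plexin-A receptors, was measured at 4.71, 4.1, 5.37 and 5.16 CPM in the controls and 20.7, 29.1, 23.6 and 26.8 CPM with Ikzf1. Sema4f, another transmembrane semaphorin, was measured at 2.14, 1.96, 1.74 and 2.08 CPM in the controls and 6.94, 6.61, 7.53 and 7.27 CPM with Ikzf1. Neither overlapped between groups (Sema6b log2 fold change 2.37, SE 0.11, adjusted p 2.71e-16). For Sema4f the log2 fold change was 1.84, SE 0.15, adjusted p 1.51e-11. Sema5a, a transmembrane semaphorin with thrombospondin repeats that confines neurites of the inner retina, was measured at 28.8, 30.3, 26.8 and 32.3 CPM in the controls and 48.3, 40.2, 44.2 and 46.9 CPM with Ikzf1. It rose more modestly and again without overlap (log2 fold change 0.61, SE 0.07, adjusted p 7.44e-09). Sema4c and Sema7a, the latter a lipid-anchored ligand of Plxnc1, rose by 0.26 and 0.28 on the log2 scale (adjusted p 5.40e-04 and 0.00809).

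The closest relative of Sema5a fell. Sema5b, which shares its domains and its role in the inner retina, was measured at 75, 63.8, 63.6 and 73 CPM in the controls and 28.8, 25.2, 23.4 and 27.5 CPM with Ikzf1. The groups stood apart (log2 fold change -1.39, SE 0.07, adjusted p 4.51e-15). Sema4b, a transmembrane class 4 member, was measured at 35.6, 34.2, 34.3 and 39.4 CPM in the controls and 14.8, 16.3, 14.5 and 16.1 CPM with Ikzf1. Its Ikzf1 libraries too all lay below its controls (log2 fold change -1.22, SE 0.07, adjusted p 1.60e-14). Sema4d, the ligand of Plxnb1, and Sema4a fell by 0.74 and 0.70 (adjusted p 1.58e-09 and 9.84e-04). Sema6a, whose pairing with Plxna4 and Plxna2 shapes inner retinal layers, was measured at 158, 182, 171 and 177 CPM in the controls and 160, 157, 162 and 133 CPM with Ikzf1. The groups overlapped and the change was small (log2 fold change -0.17, SE 0.06, adjusted p 0.0148). Its call was lost without control replicate 2 (-0.14, adjusted p 0.0561), without Ikzf1 replicate 4 (-0.10, adjusted p 0.0661) and with the length offset (-0.12, adjusted p 0.295). Of those not called, Sema4g (0.12, adjusted p 0.137) passed without control replicate 1 (0.19, adjusted p 0.0222) and with the length offset (0.21, adjusted p 0.0219). Sema6c and Sema6d had -0.07 and -0.19 (adjusted p 0.533 and 0.312).

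Of the 8 plexins, which signal for semaphorins, 6 fell, 1 rose and 1 was not called. Of all tested genes 29.8% were called lower and 29.3% higher. Plxnd1 (chromosome 6, 115954811 to 115995005, minus strand) was measured at 163, 168, 159 and 164 CPM in the controls and 74.6, 79.4, 78.1 and 89.8 CPM with Ikzf1. Every Ikzf1 library was below every control (log2 fold change -1.02, SE 0.05, adjusted p 2.95e-16), so this receptor and its ligand Sema3e were both lower. Plxna4, a partner of neuropilins and a receptor of Sema6a, was measured at 24.9, 32.8, 28 and 30.1 CPM in the controls and 16.3, 13.5, 17.9 and 15.7 CPM with Ikzf1. It fell without overlap (log2 fold change -0.87, SE 0.09, adjusted p 4.63e-09). Plxna2 and Plxna1, both receptors of the A group, fell by 0.51 and 0.40 (adjusted p 3.84e-11 and 1.44e-08), and Plxnb1 fell by 0.22 (adjusted p 1.97e-04). The call of Plxna1 was lost with the length offset (-0.32, adjusted p 0.239).

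Plxnb2, the plexin of highest control TPM, was measured at 233, 224, 229 and 244 CPM in the controls and 204, 208, 214 and 230 CPM with Ikzf1. Its groups overlapped in part and the change was the smallest among called members (log2 fold change -0.12, SE 0.04, adjusted p 0.0261). That call was lost without control replicate 4 (adjusted p 0.106), without Ikzf1 replicate 1, 2 or 3 (0.0866, 0.0791 and 0.0527) and with the length offset (-0.05, adjusted p 0.434). Plxna3, which with Plxna1 receives Sema5a and Sema5b in the retina, was the plexin that rose, from 75.7, 66.2, 68.4 and 72.3 CPM in the controls and 84, 98, 84.1 and 94.3 CPM with Ikzf1. The groups did not overlap (log2 fold change 0.35, SE 0.06, adjusted p 4.19e-06). Plxnc1, the receptor of Sema7a, was not called (0.08, adjusted p 0.306).

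Neither neuropilin was called. Nrp1, the co-receptor of Sema3a and of VEGF, was measured at 11.1, 11.5, 10.8 and 12 CPM in the controls and 11, 10.9, 11.4 and 11.8 CPM with Ikzf1, and Nrp2, that of Sema3f, at 17.1, 13.1, 16 and 15.4 CPM in the controls and 16.4, 12.9, 18.8 and 13.2 CPM with Ikzf1. The ranges of both groups overlapped for each gene. The log2 fold change was -0.01 for both, with SE 0.09 and 0.11 and adjusted p 0.947 and 0.942.

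All 3 netrins were called, 2 higher and 1 lower, where 59.1% of all tested genes were called. Ntn1, the laminin-like cue that leads ganglion cell axons into the optic nerve, was measured at 1.03, 2.31, 2.29 and 1.66 CPM in the controls and 3.34, 4.42, 4.5 and 3.46 CPM with Ikzf1. Each Ikzf1 library exceeded each control, at low levels throughout (log2 fold change 1.11, SE 0.21, adjusted p 6.07e-05). Ntn4, a netrin of basement membranes, was measured at 16.4, 17.1, 15.1 and 16.7 CPM in the controls and 21.5, 20.3, 21.4 and 21.7 CPM with Ikzf1, likewise without overlap (log2 fold change 0.38, SE 0.07, adjusted p 6.52e-05). Ntn3 fell, from 5.19, 4.32, 5.19 and 5.4 CPM in the controls and 2.2, 2.67, 1.99 and 2.61 CPM with Ikzf1. The groups were apart (log2 fold change -1.08, SE 0.16, adjusted p 1.78e-06). The annotation of Ntn3 overlaps that of Tbc1d24 on the same strand, so its reads may be shared with that gene.

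The netrin-G proteins, lipid-anchored relatives that bind partner proteins at synapses and not Dcc, moved apart from each other. Ntng1 was measured at 3.01, 2.75, 3.45 and 2.63 CPM in the controls and 10, 7.14, 9.72 and 9.18 CPM with Ikzf1, with the groups well separated (log2 fold change 1.61, SE 0.14, adjusted p 7.82e-11). Ntng2 was measured at 59.7, 50, 54.6 and 51.1 CPM in the controls and 39, 37.6, 33.4 and 45.6 CPM with Ikzf1. Here the Ikzf1 libraries lay below the controls (log2 fold change -0.47, SE 0.08, adjusted p 8.52e-05).

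Of the 5 netrin receptors, 3 fell, 1 rose and 1 was not called. Dcc, the receptor for attraction, was measured at 41.7, 41.2, 44.4 and 44.8 CPM in the controls and 39.4, 34.2, 34.9 and 39.1 CPM with Ikzf1. The fall was small but the groups did not overlap (log2 fold change -0.22, SE 0.06, adjusted p 0.00244). Unc5b, a receptor for repulsion that is also known from blood vessels (chromosome 10, 60762593 to 60831581, minus strand), was measured at 35.2, 37.3, 35.9 and 42.5 CPM in the controls and 10.8, 12, 11 and 12.2 CPM with Ikzf1. Its Ikzf1 libraries all lay below its controls (log2 fold change -1.71, SE 0.08, adjusted p 4.47e-17). This was the second largest fall among members at 1 CPM or more. Unc5a fell by 0.51 on the log2 scale (adjusted p 2.42e-06), with an annotation that overlaps Hk3 on the other strand. Unc5d was measured at 3.6, 5.02, 5.08 and 5.75 CPM in the controls and 8.09, 7.75, 8.13 and 8.19 CPM with Ikzf1, the rise of this family (log2 fold change 0.72, SE 0.13, adjusted p 2.56e-05). Unc5c had -0.16 (adjusted p 0.122) and passed the threshold with the length offset (-0.33, adjusted p 0.0343).

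All 3 Slits were called, where 59.1% of all tested genes were. Slit1, a repellent of ganglion cell axons (chromosome 19, 41600257 to 41743665, minus strand), was measured at 28.2, 27.2, 25.2 and 28.1 CPM in the controls and 12.6, 10.9, 11.5 and 11.4 CPM with Ikzf1. Every Ikzf1 library was below every control (log2 fold change -1.22, SE 0.08, adjusted p 6.70e-14). Slit2, which acts with Slit1 at the chiasm, was measured at 19.7, 20.7, 20.5 and 23.1 CPM in the controls and 26.2, 22.3, 29.4 and 25.1 CPM with Ikzf1. Ikzf1 replicate 2 lay below control replicate 4, so the groups overlapped (log2 fold change 0.29, SE 0.08, adjusted p 0.00224). Slit3 was measured at 0.0792, 0.48, 0.871 and 0.485 CPM in the controls and 1.61, 1.84, 1.28 and 1.59 CPM with Ikzf1. It rose from under 1 CPM (log2 fold change 1.69, SE 0.38, adjusted p 3.79e-04), and control replicate 1 lay well below the other controls.

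No Robo receptor rose, 2 of 3 fell and 1 was not called, where 59.1% of all tested genes were called. Robo1 was measured at 61.5, 64, 63.9 and 62.3 CPM in the controls and 40.9, 35.6, 41.1 and 36.4 CPM with Ikzf1, without overlap (log2 fold change -0.71, SE 0.06, adjusted p 1.05e-11). Robo2, the main Slit receptor of ganglion cells, was measured at 144, 137, 143 and 141 CPM in the controls and 167, 134, 153 and 146 CPM with Ikzf1. Its groups overlapped and it was not called (log2 fold change 0.09, SE 0.05, adjusted p 0.151), although it passed without Ikzf1 replicate 2 (0.14, adjusted p 0.0176). Robo3, a relative known from midline crossing, had -0.22 (adjusted p 0.0168), and that call was lost without control replicate 1 (-0.14, adjusted p 0.121) and with the length offset (-0.21, adjusted p 0.125).

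**Figure D3:**
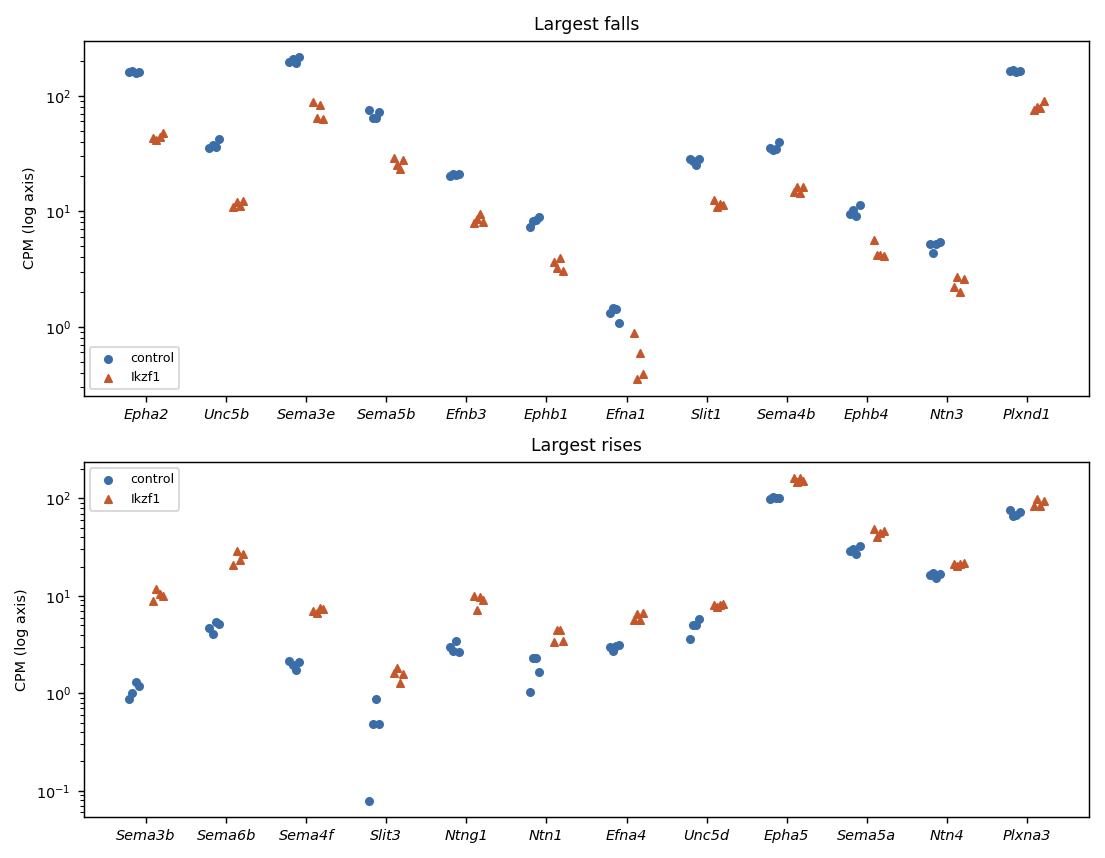
CPM (log axis) of each library for the 12 largest falls and the 12 largest rises among called members with a mean of at least 1 CPM in a group; circles are the 4 controls, triangles the 4 Ikzf1 libraries. The 24 genes were chosen for large called changes, so it follows largely from that choice that their groups do not overlap. Of all tested genes 53.1% also do not overlap. The controls of Slit3, from 0.0792 to 0.871 CPM, are the most spread on this axis.

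Of the ephrin-A ligands, which are lipid-anchored, 2 of 5 rose, 2 fell and 1 was not called. Efna4 was measured at 2.97, 2.75, 3.05 and 3.15 CPM in the controls and 5.67, 6.52, 5.7 and 6.67 CPM with Ikzf1. The Ikzf1 libraries were all above the controls (log2 fold change 1.04, SE 0.14, adjusted p 3.47e-07). Efna1 was measured at 1.31, 1.44, 1.42 and 1.07 CPM in the controls and 0.889, 0.35, 0.598 and 0.388 CPM with Ikzf1. It fell at levels close to 1 CPM (log2 fold change -1.23, SE 0.33, adjusted p 0.00191). Efna5, which is graded across the nasal retina and its targets, was measured at 66.9, 70.5, 69.2 and 73.2 CPM in the controls and 48.8, 50.2, 51.1 and 52.2 CPM with Ikzf1, again without overlap (log2 fold change -0.47, SE 0.05, adjusted p 3.95e-09). Efna2 rose by 0.30 on the log2 scale (adjusted p 8.21e-04). Efna1, Efna3 and Efna4 stand next to each other on chromosome 3, with gaps of 32.8 and 10.4 kb. Their log2 fold changes were -1.23, 0.20 (adjusted p 0.372) and 1.04, so the outer neighbours moved in opposite directions.

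Ephrin-B ligands span the membrane, and all 3 were called, where 59.1% of all tested genes were. Efnb3, a midline repellent, was measured at 20, 21, 20.4 and 20.9 CPM in the controls and 7.96, 8.54, 9.56 and 8.08 CPM with Ikzf1. It had the largest fall of the ephrins (log2 fold change -1.27, SE 0.08, adjusted p 2.98e-13). Efnb1 was measured at 35.8, 30.4, 27.6 and 33.7 CPM in the controls and 23.7, 23.1, 24 and 24.5 CPM with Ikzf1, lower in every Ikzf1 library (log2 fold change -0.42, SE 0.07, adjusted p 1.45e-05). Efnb2, of the dorsal retina and the chiasm, was measured at 120, 121, 119 and 125 CPM in the controls and 146, 137, 153 and 153 CPM with Ikzf1. It rose without overlap (log2 fold change 0.28, SE 0.04, adjusted p 4.00e-06).

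EphA receptors moved both ways, with 3 of 9 higher, 4 lower and 2 not called. Epha2 (chromosome 4, 141301240 to 141329384, plus strand) was measured at 161, 163, 157 and 162 CPM in the controls and 42.9, 41.5, 44.1 and 47.7 CPM with Ikzf1. It was the largest fall of members at 1 CPM or more and the groups were far apart (log2 fold change -1.86, SE 0.05, adjusted p 2.74e-22). Epha5, a receptor of the temporal retina that reads ephrin-A gradients, was measured at 98.4, 104, 102 and 102 CPM in the controls and 162, 146, 162 and 150 CPM with Ikzf1. All Ikzf1 libraries were above the controls (log2 fold change 0.61, SE 0.04, adjusted p 1.96e-12). Epha3, its relative, rose by 0.31 (adjusted p 1.29e-04). Epha4, which binds ephrins of both classes, fell by 0.26 (adjusted p 0.00142), and Epha10, which lacks kinase activity, fell by 0.69 (adjusted p 3.51e-04).

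Epha1 and Epha6 were under 1 CPM in both groups on average. Epha1 had 0.713, 0.48, 0.653 and 0.797 CPM in the controls and 0, 0.175, 0.438 and 0.0706 CPM with Ikzf1 (log2 fold change -1.93, SE 0.54, adjusted p 0.00322). Its value ran from -2.97 to -1.54 over the alternatives, while the authors' deposited table gives -1.16. The annotation of Epha1 overlaps Zyx on the other strand. Epha6 had 0.89 (adjusted p 0.036) with overlapping groups, and 10 of its 15 alternatives ended the call, 6 of them by leaving out control replicate 2, 3 or 4 or Ikzf1 replicate 1, 3 or 4 (adjusted p 0.0523, 0.0809, 0.101, 0.0633, 0.107 and 0.104). Epha7 and Epha8 had 0.04 and -0.01 (adjusted p 0.658 and 0.921).

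No EphB receptor rose, 4 of 5 fell and 1 was not called. Of all tested genes 29.3% were called higher and 29.8% lower. Ephb1, the receptor of ganglion cells whose axons stay on their own side, was measured at 7.33, 8.29, 8.35 and 8.97 CPM in the controls and 3.64, 3.24, 3.91 and 3.04 CPM with Ikzf1. All Ikzf1 libraries were lower (log2 fold change -1.25, SE 0.13, adjusted p 2.73e-09). Ephb4, the partner of Efnb2 at blood vessels, was measured at 9.38, 10.2, 9.15 and 11.4 CPM in the controls and 5.67, 4.16, 4.22 and 4.06 CPM with Ikzf1, also without overlap (log2 fold change -1.15, SE 0.13, adjusted p 7.71e-09). The annotations of Ephb1 and Ephb4 overlap 9630041A04Rik and Zan on the other strand. Ephb3 fell by 0.31 (adjusted p 3.00e-04). Ephb6, which lacks kinase activity, fell by 0.59 (adjusted p 4.57e-06), a call lost with the length offset (-0.38, adjusted p 0.0648). Ephb2, a receptor of the ventral retina and the EphB of highest control TPM at 45.5 ± 3.1 TPM (SD, n = 4), was measured at 148, 155, 142 and 160 CPM in the controls and 148, 150, 151 and 168 CPM with Ikzf1. Its groups overlapped (log2 fold change 0.03, SE 0.05, adjusted p 0.63).

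Plxnd1, Unc5b, Ephb4 and Epha2 are also expressed by vessels or other non-neural cells. The summed CPM of the 7 endothelial markers was 506 to 575 in the controls and 222 to 266 with Ikzf1. Most of it was Kdr, at 436 ± 32.9 and 215 ± 18.2 CPM (SD, n = 4), and Flt1, at 102 ± 5.09 and 19.1 ± 1.7 CPM. Kdr is also known from retinal progenitors. The other markers of this list were lower in level. Pecam1 was at 3.05 and 2.90 CPM on average, and Cldn5 and Tek were under 1 CPM in both groups. Cdh5 and Emcn had at most 1.78 normalised counts on average in the authors' deposited table. Of the 5 tested, Kdr, Flt1 and Tek fell and Pecam1 and Cldn5 were not called (log2 fold change -0.09 and -0.54, adjusted p 0.762 and 0.281), a called share of 60% against 59.1% of all tested genes. Pericyte markers summed to 1.27 to 2.58 and 0.832 to 1.52 CPM, microglial markers to 1.96 to 2.83 and 1.04 to 2.76 CPM, and pigment epithelium markers to 8.2 to 9.37 and 3.59 to 5.3 CPM. Of those tested, 1 of 2 pericyte markers, 0 of 2 microglial markers and 1 of 3 pigment epithelium markers were called, each called one lower. The 5 lens markers had at most 4.33 normalised counts in that table. The part of the Kdr and Flt1 levels in the members' changes was not tested.

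Other genes of the pathway, outside the families above, were read from a list of 70 mediators, co-receptors and further cues. All were tested, 23 rose, 28 fell and 19 were not called. The called share was 72.9% against 59.1% of all tested genes, and the median log2 fold change was 0.01. The lowest p-values among falls belonged to Rgma, a repulsive ligand of neogenin, Srgap2, which links Robo receptors to Rac, and Gap43, a growth cone protein. Rgma went from 51.9 ± 1.68 to 19.7 ± 1.2 CPM (SD, n = 4, log2 fold change -1.39, SE 0.06, adjusted p 3.03e-17). Srgap2 fell by 0.96 and Gap43 by 0.80 (adjusted p 2.27e-14 and 4.16e-14). Among rises they belonged to Flrt3, an adhesion protein that binds Robo1 and Unc5 receptors, Farp1, an exchange factor linked to plexin-A receptors, and Fyn, a kinase used by Dcc and plexins. Flrt3 went from 19.8 ± 2.43 to 59.3 ± 4.54 CPM (SD, n = 4, log2 fold change 1.58, SE 0.08, adjusted p 2.44e-14). Farp1 and Fyn rose by 0.60 and 0.50 (adjusted p 3.11e-11 and 8.43e-11).

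Eph and ephrin genes are graded across the retina under factors that mark its dorsal, ventral, nasal and temporal parts. Of 16 such genes 15 were tested, 3 rose, 8 fell and 4 were not called, a called share of 73.3% with a median of -0.33. Of all tested genes 59.1% were called, 29.3% higher and 29.8% lower. Soho1 was not matched. The falls of lowest p were Tbx3 and Tbx2, dorsal T-box factors, and Cyp1b1, an enzyme of retinoic acid synthesis. Tbx3 and Tbx2 went from 83.4 ± 5.39 and 194 ± 18.8 to 37.1 ± 3.15 and 93.5 ± 5.56 CPM (SD, n = 4). Their log2 fold changes were -1.17 and -1.05, and that of Cyp1b1 was -0.97 (adjusted p 1.05e-15, 7.66e-12 and 1.90e-07). The rises of lowest p were Nr2f1 and Nr2f2, orphan nuclear receptors graded along the dorsoventral axis, and Bambi, a decoy receptor of BMP signals. Nr2f1, Bambi and Nr2f2 had log2 fold changes of 0.62, 0.85 and 0.40 (adjusted p 8.61e-12, 2.88e-09 and 3.13e-06). The 8 falls also held the ventral genes Vax2 and Aldh1a3, and the dorsal genes Bmp4 and Aldh1a1, beside Hmx1 (log2 fold changes -0.54, -1.82, -2.87, -0.33 and -0.38), so dorsal and ventral genes were both among the falls. These 5 were named after their values were seen. The dorsal Tbx5 was among those not called (0.24, adjusted p 0.217).

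**Figure D4:**
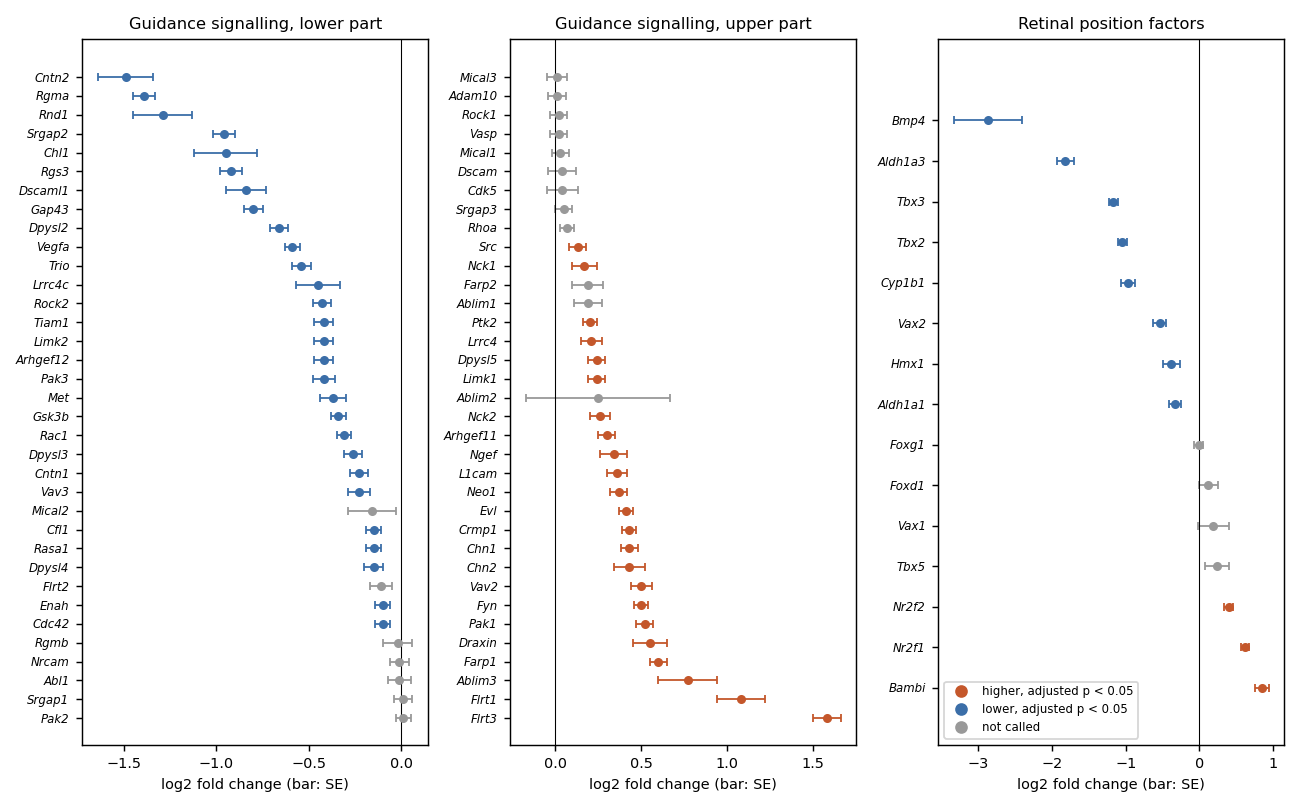
Log2 fold change with its standard error (bars), Ikzf1 over control, of the 70 guidance signalling genes (split at the middle of their order into the left and central panels) and the 15 tested retinal position factors (right panel). Signalling genes run from -1.49 to 1.58 and position factors from -2.87 to 0.85.

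The authors' deposited table, made from the same libraries with DESeq2, called 49 members at an adjusted p under 0.05. Of these, 47 were also called here, all in the same direction. Sema4g and Unc5c were called in that table only (0.21 and -0.32 in the authors' deposited table). Epha6, Ephb6, Plxna1, Plxnb2, Robo3 and Sema6a were called here only, and these 6 are also the members that lost the call with the length offset.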

How the data were processed

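RNA was measured by paired-end sequencing of ribosome-depleted libraries, 4 per group, grouped by sample title. The deposited quantification files hold estimated counts and TPM for each transcript. The authors used Salmon, per the submitters' processing notes; its version and strand setting are not given in the sources used here. The authors' deposited table (DESeq2, per the labels) gives the mean normalised signal per gene, log2 fold changes, a Wald score and p-values. Transcripts were joined to genes by matching runs of transcripts to those means: of 16815 genes whose mean reached 5, 16779 were joined (99.8%), holding 99.7 to 99.8% of each library. The join recovered the true transcripts for 100% of the joined genes on simulated data. Those data were made with the same formula and the library factors were given, so solving the factors was not tested there. With the means moved slightly, 0.416% of genes still matched. Fold changes, which the join did not use, had a Pearson r of 0.998 with the authors' deposited table over 11890 genes of mean at least 100.

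Counts were summed per gene, rounded and tested with edgeR 4.0.16 (filterByExpr, TMM, robust quasi-likelihood fit, two-sided, Benjamini-Hochberg, no covariates; R 4.3.3). DESeq2 1.42.0 and 15 other settings were alternatives. On simulated data for this comparison, with 15675 genes tested, edgeR recovered 92% of 2-fold changes. That simulation changed 194 of the tested genes, with a constant dispersion and no large share of reads taken by Ikzf1. In the data 9239 genes were called, so the recovered share need not hold there. Depth was 21405714 to 30510321 read pairs per library.

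Library values are given for the 12 largest rises and falls among called members with a mean of at least 1 CPM in a group, for members chosen by function, and for the 6 of highest control TPM. Members and lists were chosen with earlier results of these data known. The labels do not state that same-numbered replicates are paired, so no block was used. Same-numbered deviations correlated at -0.208 to 0.0776, which shows no pairing but cannot exclude it. The CUT&RUN peak lists are on mm9 and were not used here, since gene positions are on GRCm38.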

Additional observations from a re-analysis of the deposited data

Results flagged for a closer look

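Among 76 groups of 4 libraries examined for the 38 members with library values, 3 had 1 library far from the others by Dixon's test, and chance flags about 1 in 20 groups; over all tested genes 5.23% of groups did. Ephb2 stood at 168 CPM in Ikzf1 replicate 4, against 148 to 151 CPM in the other Ikzf1 libraries. Ephb4 stood at 5.67 CPM in Ikzf1 replicate 1, against 4.06 to 4.22 CPM in the others. Sema6a stood at 133 CPM in Ikzf1 replicate 4, against 157 to 162 CPM in the others.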

How the results depend on the processing

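Over 16 alternatives the number of called members ran from 49 to 54, against 53, and that of all called genes from 7874 to 9302, against 9239. The offset for average transcript length gave the lowest counts, 49 members, 7874 genes, 42 guidance signalling genes and 9 position factors (against 51 and 11 without it). Leaving out 1 library gave 51 to 53 members. Of the 53 called members, 47 kept call and direction under every alternative that gave them a value (Epha1 had 15 of the 16, being removed by the minimum of 1 CPM in 4 libraries), 6 lost the call under some, and none reversed. Of those not called, 4 gained a call under some alternative (Robo2, Sema3g, Sema4g and Unc5c) and 9 changed sign. The cause was not tested. With the length offset, the log2 fold change was -0.07 for Efna3, 0.01 for Nrp2, -0.04 for Sema3a and -0.11 for Sema3d. Without 1 library in turn, the values of the members whose sign changed ran from -0.01 to 0.09 for Epha7, -0.09 to 0.06 for Epha8, -0.01 to 0.06 for Ephb2, -0.03 to 0.02 for Nrp1, -0.12 to 0.06 for Nrp2, -0.09 to 0.26 for Sema3d and -0.13 to 0.02 for Sema6c. Members under about 1 CPM carry the widest errors, which limits Epha1, Epha6, Sema3g, Slit3 and Efna1. In the authors' deposited table their log2 fold changes were -1.16, 0.46, -0.56, 1.22 and -0.95, each smaller in size than here.

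The replicate block, for numbers that the libraries share without being labelled as paired, gave 8911 called genes and 52 called members. With it Epha6 lost its call (0.87, adjusted p 0.0679). No control library correlated best with the Ikzf1 library of its own number. The block gave 49 called guidance signalling genes, against 51, and 10 called position factors, against 11.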
